A study of Mus musculus with 18 samples.

Results

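Intronless protein-coding genes are described here in mouse embryonic stem (mES) cells in which newly made RNA was labelled. They are the 150 autosomal protein-coding genes of GENCODE M21 whose transcripts all have 1 exon and that had the highest count summed over the 18 libraries, chosen by that sum alone out of 1071 such genes. Genes whose symbol begins with *Hist*, 11 named genes such as *Jun*, *Sox2* and *Pou3f1*, and a stretch of chromosome 13 had been left out before the ranking, so that 72 single-exon genes were left out by name and 13 by position. The summed count is therefore a description of the members and not a result. The last 3 members were *E130208F15Rik* with 237 reads, *Gm42372* with 235 and *Gm5617* with 234, and the first 3 genes left outside were *Gm8797* with 234, *Tes3-ps* with 226 and *Pnma1* with 223. The tie at 234 was broken by gene identifier.

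The libraries came from 1 WT line and 1 line labelled *Tet2*-KO (*Tet2*-/-), grown in serum with LIF, CHIR99021 and PD0325901 and passaged on gelatin to clear the feeder cells. Both received 1 mM 5-ethynyl uridine (EU), a uridine analogue that cells build into the RNA they are making, for 10, 20 or 40 min, with 3 libraries in each of the 6 groups. Labelled RNA was captured on beads, and ERCC spike-in RNA of known composition went into the eluate afterwards, in proportion to each sample's total RNA, so that ERCC reads do not control for the capture. The study asks whether loss of TET2, a dioxygenase that oxidizes 5-methylcytosine in DNA and RNA, changes how fast genes are transcribed. Because 1 line stands for each genotype, differences between genotypes and differences between these lines cannot be told apart, and the p-values measure the spread between dishes.

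Most mammalian pre-mRNAs are spliced before export, whereas the transcript of an intronless gene needs only capping, cleavage and, for most, polyadenylation. Such genes fall into those that never had introns, among them replication-dependent histones, many G protein coupled receptors and several developmental transcription factors, and those that arose when the spliced mRNA of another gene was copied back into the genome. In a nascent RNA library every read on them lies in exon sequence, so that unfinished and finished transcripts cannot be separated.

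Each library held 17931614 to 23069143 reads on genes and 44162 to 512186 on ERCC transcripts. Levels are given as reads per 1000 ERCC reads. Reads over the whole span of *Tet2* were not lost in the labelled *Tet2*-KO libraries, where its log2 fold change over WT was 0.54 (SE 0.05), so that this count does not check the deletion, and the libraries are called by their labels. Of 10 pluripotency markers, all were tested, 6 were higher and 1 lower in labelled *Tet2*-KO libraries, and they summed to 3135 to 3324 CPM (counts scaled to the library's total) in WT and 2260 to 2393 in labelled *Tet2*-KO libraries, without overlap. *Pou5f1* had at least 1438 reads in every library, and *Zfp42* had a log2 fold change of -1.515. The 10 feeder fibroblast markers summed to 34.8 to 37.2 CPM in WT at 10 min, 20.7 to 22.3 in labelled *Tet2*-KO libraries at 20 min and 8.89 to 12.2 in the other 12, with *Lum* at 0 or 1, *S100a4* at 0 to 2, *Col1a1* at 32 to 182 and *Acta2* at 47 to 319 reads. Of the 6 that were tested 4 were higher and 1 lower in labelled *Tet2*-KO libraries. The 8 primitive endoderm markers summed to 212 to 292 CPM, with *Sox17* and *Foxa2* at 0 to 7, *Dab2* at 133 to 222 and *Lama1* at 3322 to 5604 reads, and the 6 tested were all higher in labelled *Tet2*-KO libraries (median log2 fold change 0.77). The median was 0.37 for the pluripotency and 0.80 for the feeder markers. These calls use ERCC reads as the scale, on which 80.5% of all genes tested were higher and 4.15% lower (median 0.70). CPM sums do not use the ERCC reads. The part of the cells that carry these markers in the results was not tested.

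Whether an intronless gene could be counted at all depended on where it lies. Of the 1071 candidate genes, 101 lay wholly inside another annotated gene on the same strand, and all 101 had 0 reads in all 18 libraries. Of 128 that lay inside a gene on the opposite strand only, 91 had reads (71.1%), as did 378 of 741 that overlapped no gene (51.0%). Over all annotated genes the shares were 0.186% of 6457, 73.7% of 6069 and 66.5% of 29481. Reads were thus assigned over whole gene spans with regard to strand, and a read shared by genes of the same strand was left uncounted. The 101 unread genes include 18 of the *Pcdhb* genes, which encode clustered protocadherins of the cell surface, the transcription factor genes *Pou3f3* and *Foxc2*, and the imprinted gene *Mcts2*, and no level can be given for them. Of the 150 members, none lay inside another gene on the same strand, 21 lay inside a gene on the opposite strand and 103 overlapped no other gene. The plot of candidate genes by overlap class shows the empty class.

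**Figure D1:**
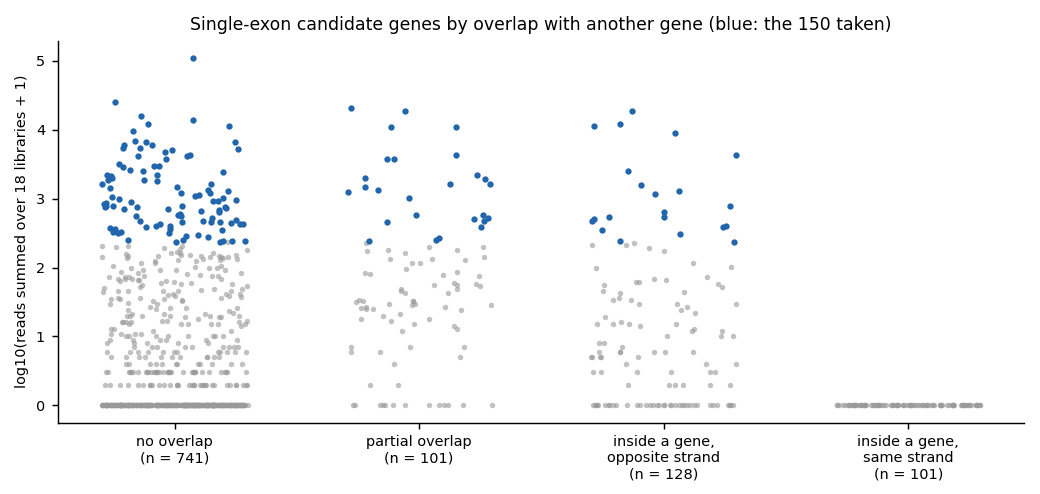
Reads summed over the 18 libraries, as log10(reads + 1), for each of the 1071 candidate genes (points, spread sideways for visibility), by overlap with another annotated gene. Blue points are the 150 members, of which 103 overlap no gene, 26 overlap one in part and 21 lie inside a gene of the opposite strand, and all 101 genes inside a gene of the same strand lie at 0.

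Sequence shows a second limit on what can be counted. For 30 members another annotated transcript matched at least 50% of the member's transcript with an identity of 80% or more, and for 19 of these the identity was 95% or more. Reads that fit several places equally well were set aside by the counting program and made up 5.24% to 5.99% of all reads recorded. Reads on a near copy can only be told from reads on its relative where the sequences differ. The first 60 bases that hold the most differences within the coding sequence are shown for 3 such pairs, with differing bases in capitals, because *Gm4737* and *Tpm3-rs7* have log2 fold changes unlike those of their relatives and the relative of *Gm9008* had 0 reads. In *Gm4737*, a copy of the S-adenosylhomocysteine hydrolase gene *Ahcy*, the pair differed at 4 of 1296 coding bases, and bases 415 to 474 of the coding sequence read:
*Gm4737*: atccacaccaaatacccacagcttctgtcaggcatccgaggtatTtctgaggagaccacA
*Ahcy*: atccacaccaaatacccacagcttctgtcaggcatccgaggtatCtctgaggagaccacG
In *Tpm3-rs7*, a copy of the tropomyosin gene *Tpm3*, 3 of 744 coding bases differed, all within bases 68 to 127:
*Tpm3-rs7*: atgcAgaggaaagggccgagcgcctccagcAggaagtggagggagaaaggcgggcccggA
*Tpm3*: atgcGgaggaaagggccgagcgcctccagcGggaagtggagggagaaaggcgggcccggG
In *Gm9008*, a copy of *Rnf26*, which encodes a RING finger protein, 11 of 1272 coding bases differed, and bases 463 to 522 were:
*Gm9008*: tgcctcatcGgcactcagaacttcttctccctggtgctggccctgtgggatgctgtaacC
*Rnf26*: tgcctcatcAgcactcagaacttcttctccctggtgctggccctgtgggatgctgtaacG
The longest stretch without a difference was 575 bases for *Gm4737*, 617 for *Tpm3-rs7* and 242 for *Gm9008*. *Hmga1b* and *Hmga1*, which encode an architectural chromatin protein, did not differ at any of the 321 coding bases compared. The counts of all 30 genes are uncertain for this reason. The sequences are those of GENCODE M21 transcripts, 5′ to 3′.

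One member carries a histone feature. *H2afx*, which encodes the histone variant H2AX that is phosphorylated at DNA breaks, lies at chromosome 9, 44334694 to 44336077, plus strand, of mm10. Bases 547 to 562 of its 1384-base transcript match the stem-loop that ends replication-dependent histone mRNAs:
*H2afx*: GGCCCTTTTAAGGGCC
A search for the histone stem-loop pattern on the transcript strand found a match in 1 of 150 members and in 50 of 21918 protein-coding genes (0.23%).

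The members' transcripts had a median length of 2334 bases (165 to 11294), against 3026 for 19618 multi-exon autosomal protein-coding genes, a median GC content of 52.2% against 49.0% and a median uridine content, which limits how many EU residues a transcript can take up, of 23.4% against 25%. For 99 members a promoter of 250 bases before to 50 after the start was found in the RefSeq table (GRCm38.p6). Their median GC content was 60.3% and their median ratio of observed to expected CpG was 0.81, against 52.7% and 0.38 over the 32851 promoters in the table. GGGCGG was present on either strand in 59.6% against 35.7%, CCAAT in 46.5% against 37.4%, CACGTG in 9.1% against 7.2% and TATAAA in 7.1% against 13.6%. No motif of these contains another. Promoters are printed for the SOX-family members that stood farthest apart in opposite directions between the genotypes, as the 250 bases before the start in mm10, with GGGCGG and the CCAAT motif, on either strand, in capitals. For *Sox11* they are chr12:27342719-27342968, minus strand, and for *Sox21* chr14:118237031-118237280, minus strand:
*Sox11*: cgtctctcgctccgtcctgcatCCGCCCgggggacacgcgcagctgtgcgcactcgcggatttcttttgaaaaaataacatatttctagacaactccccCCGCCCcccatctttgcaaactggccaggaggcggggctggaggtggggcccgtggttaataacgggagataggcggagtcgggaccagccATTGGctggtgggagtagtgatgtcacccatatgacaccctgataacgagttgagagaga
*Sox21*: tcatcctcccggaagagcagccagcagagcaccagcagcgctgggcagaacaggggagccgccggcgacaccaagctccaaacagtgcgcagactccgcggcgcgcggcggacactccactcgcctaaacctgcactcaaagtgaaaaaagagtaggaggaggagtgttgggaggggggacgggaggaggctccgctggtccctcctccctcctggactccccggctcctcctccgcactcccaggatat
The *Sox11* stretch held 17 CpG, 2 matches to GGGCGG and 1 to CCAAT, and the *Sox21* stretch held 17 CpG and no match to either.

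The 150 genes together took 0.119% to 0.164% of the reads on genes. In WT their share was 0.122% ± 0.002 (SD, n = 3) at 10 min and 0.163% ± 0.0005 at 40 min, and in labelled *Tet2*-KO libraries it was 0.125% ± 0.003 and then 0.156% ± 0.002. At 40 min every library lay above every 10 min library of its genotype (two-sided exact permutation test, p = 0.1 in each, the smallest p that 3 libraries against 3 allow). Between genotypes the share overlapped at 10 min (p = 0.3, exact permutation test). It was higher in all 3 labelled *Tet2*-KO libraries at 20 min, with 0.142% ± 0.006 against 0.132% ± 0.003, and lower in all 3 at 40 min (p = 0.1 each, exact permutation test). *Utp3* held 18.4% to 23.9% of the members' reads. Without it the share at 20 min overlapped between genotypes (p = 0.2, exact permutation test), and at 40 min it was 0.129% ± 0.0003 in WT and 0.12% ± 0.001 in labelled *Tet2*-KO libraries.

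*Utp3*, a component of the small subunit processome that assembles ribosomes in the nucleolus, was the most abundant member, with 109965 reads. It lies at chromosome 5, 88554462 to 88556090, plus strand, in a single exon of 1629 bases. Its level in WT was 10.1, 10.6 and 11.9 after 10 min, 38.4, 40.3 and 41.6 after 20 min and 82.4, 83.7 and 88.3 after 40 min, and in labelled *Tet2*-KO libraries 25.8, 25.9 and 28.4 after 10 min, 59.2, 69.3 and 76 after 20 min and 129, 138 and 162 after 40 min. All labelled *Tet2*-KO libraries lay above all WT libraries at each EU time. Its log2 fold change averaged over the EU times was 0.94 (SE 0.05, adjusted p = 3.4e-56), as given by the quasi-likelihood test of edgeR over 19910 genes (Benjamini-Hochberg adjusted), which is the test used unless another is named. Per 1000 bases of transcript *Utp3* had a mean level of 38.2, *H2afx*, the next, 8.11, *Rrs1* 6.78 and *Pcbp1* 5.59.

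*Rrs1*, *Pcbp1* and *Hnrnpa0* had smaller fold changes than *Utp3*. *Rrs1*, a regulator of ribosome assembly with 25122 reads, had a level of 2.76, 2.82 and 2.83 after 10 min, 9.96, 10.4 and 11 after 20 min and 21.9, 23.1 and 26 after 40 min in WT. In labelled *Tet2*-KO libraries it was 4.58, 4.61 and 5.11 after 10 min, 11.6, 12.9 and 14.4 after 20 min and 24.5, 28.4 and 32.7 after 40 min. The groups overlapped at 40 min only, and the log2 fold change was 0.45 (SE 0.06, adjusted p = 2.34e-14). *Pcbp1*, which encodes a poly(C)-binding protein, had 1.76, 1.87 and 2.2 after 10 min, 7.62, 7.76 and 7.82 after 20 min and 18.2, 18.9 and 20.8 after 40 min in WT. Its level was 3.38, 3.91 and 4.1 after 10 min, 7.7, 10.1 and 10.5 after 20 min and 16.4, 19.4 and 21.8 after 40 min in labelled *Tet2*-KO libraries, so that the groups were apart at 10 min and overlapped at 20 and 40 min. Its log2 fold change was 0.41 on average but 0.96 at 10 min and -0.01 at 40 min. *Hnrnpa0*, which encodes a heterogeneous nuclear ribonucleoprotein, had a log2 fold change of 0.64 (SE 0.06, adjusted p = 5.22e-22), with no overlap between genotypes at any EU time. On the TMM scale, which sets the bulk of genes level and does not use the ERCC reads, the same log2 fold changes were -0.25 for *Rrs1*, -0.29 for *Pcbp1* and -0.06 for *Hnrnpa0*.

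*Zrsr1*, an imprinted gene that arose as a copy of a splicing factor gene and encodes a U2 auxiliary factor-related protein, differed most among these 10. Its level was 1.64, 1.69 and 1.77 after 10 min, 5.04, 5.16 and 5.29 after 20 min and 9.67, 10.4 and 11.7 after 40 min in WT and 5.28, 5.58 and 5.66 after 10 min, 12.5, 13.7 and 13.8 after 20 min and 24.4, 29.5 and 30.7 after 40 min in labelled *Tet2*-KO libraries. No library overlapped, and the log2 fold change was 1.49 (SE 0.06, adjusted p = 4.92e-87). *Haspin*, which encodes the kinase of histone H3 threonine at the centromere and lies inside *Itgae* on the opposite strand, had 1, 1.1 and 1.18 after 10 min, 3.59, 4.11 and 4.62 after 20 min and 9.01, 9.54 and 9.62 after 40 min in WT. In labelled *Tet2*-KO libraries it had 2.88, 3.12 and 3.17 after 10 min, 7.37, 8.51 and 9.15 after 20 min and 15.7, 16 and 18 after 40 min, again without overlap, and a log2 fold change of 1.11 (SE 0.06, adjusted p = 4.76e-52). *H2afx* had 1.77, 2.17 and 2.5 after 10 min, 6.02, 7.16 and 8.35 after 20 min and 12.9, 15 and 16.6 after 40 min in WT and 4.84, 6.65 and 6.84 after 10 min, 10.2, 11.4 and 12.8 after 20 min and 24.5, 25 and 27.3 after 40 min in labelled *Tet2*-KO libraries, with a log2 fold change of 0.99 (SE 0.06, adjusted p = 3.63e-48). *Hexim1*, an inhibitor of the elongation factor P-TEFb, had a log2 fold change of 0.54, *Zfp830* of 0.69 and *Epop*, which binds Polycomb repressive complex proteins and elongin, of 0.60, each without overlap at any EU time, and on the TMM scale these were -0.16, -0.01 and -0.09. The plot of the 10 most abundant members shows these levels by library.

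**Figure D2:**
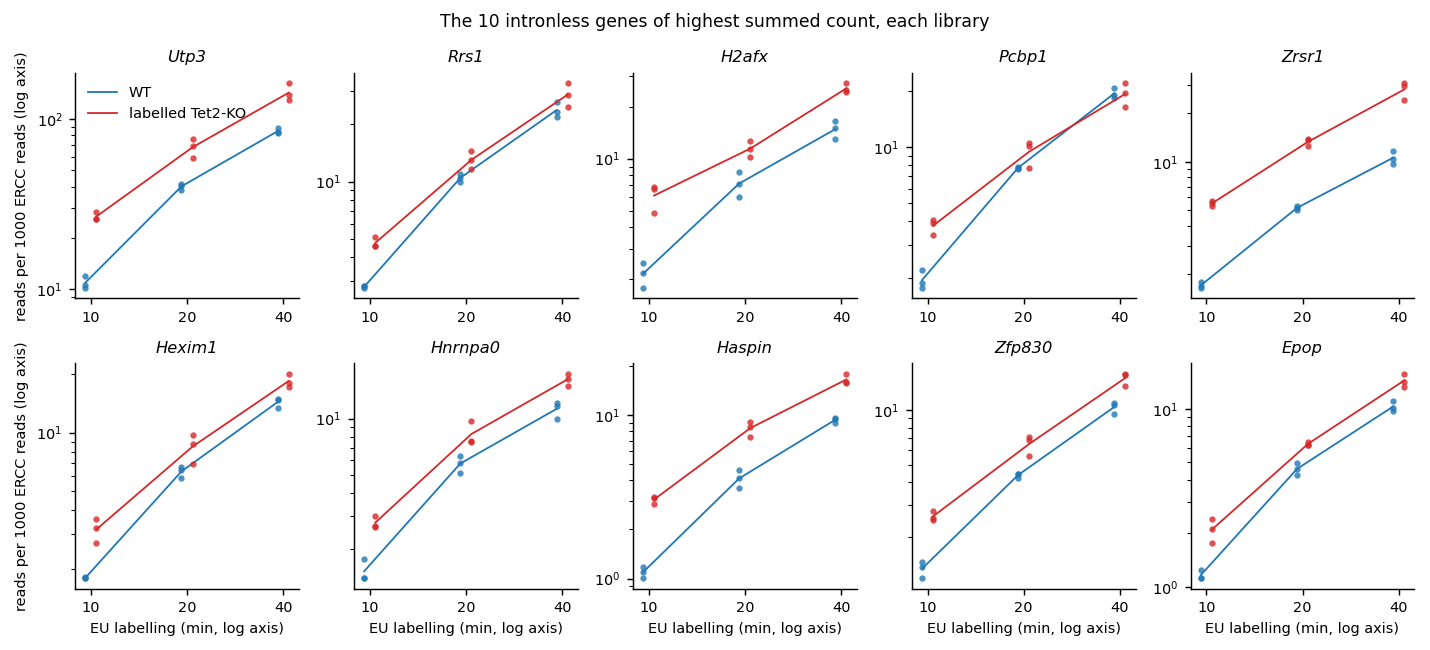
Level of the 10 most abundant intronless genes, in reads per 1000 ERCC reads (log axis), against minutes of EU labelling (log axis). Points are single libraries (3 per group, set slightly aside by genotype), lines join the group means, blue is WT and red the labelled *Tet2*-KO libraries. All 10 rise with EU time, red lies above blue at 10 min in each, and *Pcbp1* is the one whose lines meet at 40 min.

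Across the 150 members, 119 were higher and 7 lower in labelled *Tet2*-KO libraries on average over the EU times, and 24 were not called. This is 79.3% and 4.67%, beside 80.5% and 4.15% of all genes tested. The median log2 fold change was 0.70 (quartiles 0.42 and 0.99), the same to 2 decimals as over all genes tested and 0.01 from the 0.69 of the 14349 multi-exon genes. All 150 passed the filter on low counts. Without a spike-in, on the TMM scale that sets the bulk of genes level, 37 members were higher and 32 lower, beside 28.6% and 27.9% of all genes, and their median was 0.00. The direction of most members therefore rests on the ERCC scale. In 62 members the labelled *Tet2*-KO libraries all lay above the WT libraries at each EU time, and in 6 below, beside 51.6% and 1.56% of all genes tested.

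On the ERCC scale the median difference was largest at the shortest labelling, as it was over all genes, whereas on the TMM scale the members' medians were 0.04 at 10 min, 0.08 at 20 min and -0.07 at 40 min. At 10 min 115 members were higher and 6 lower (76.7% and 4.0%, beside 79% and 2.1% of all genes), with a median log2 fold change of 1.00 beside 0.96. WT libraries at 10 min also held the most feeder marker reads and the most ERCC reads, and their part was not tested. At 20 min 70 were higher and 8 lower (46.7% and 5.33%, beside 53.7% and 4.86%), with medians of 0.53 and 0.45. At 40 min 79 were higher and 6 lower (52.7% and 4.0%, beside 68.2% and 2.84%), with medians of 0.60 and 0.67. Counts follow abundance: at 40 min 37 of the 50 most abundant members were called higher and 12 of the 50 least abundant, although their medians were 0.54 and 0.64.

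For 27 members the fold change itself was lower at 40 than at 10 min, and for 0 it was higher at an adjusted p under 0.05 (18% and 0.0%, beside 19.3% and 0.552% of all genes tested). The median change was -0.36 on the log2 scale, beside -0.29. Of the 27, 17 were among the 50 most abundant. *Pcbp1* fell by 0.98 (adjusted p = 5.42e-08), *H2afx* by 0.72 (adjusted p = 0.000113) and *Utp3* by 0.54 (adjusted p = 0.000724). The count of 27 depends on single libraries: it was 10 without replicate 2 of the 40 min labelled *Tet2*-KO libraries, 15 without replicate 2 of WT at 40 min, and 16 without replicate 3 of WT at 10 min or of the 10 min labelled *Tet2*-KO libraries. On the TMM scale 7 were lower and 1 higher.

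The slope of the level, in reads per 1000 ERCC reads, on EU time was positive in both genotypes for all 150 members and larger in labelled *Tet2*-KO libraries for 121 (80.7%, beside 89.3% of 15158 protein-coding genes tested). The median log2 ratio of the slopes was 0.54, beside 0.62.

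With EU time, all 150 members rose from 10 to 40 min in WT (beside 96.7% of all genes) and 144 in labelled *Tet2*-KO libraries (96.0%, beside 94.7%). The median log2 rise was 2.63 in WT and 2.21 in labelled *Tet2*-KO libraries, beside 2.26 and 2.0 over all genes. The multi-exon genes with a span no longer than that of the longest member, 3247 genes, had 2.36 and 2.07. In WT from 10 to 20 min the members' median rise of 1.71 lay 0.08 above the 1.63 of all genes, while from 20 to 40 min it was 0.92 against 0.64 over all genes and 0.75 over the short multi-exon genes. In labelled *Tet2*-KO libraries the 2 steps were 1.23 against 1.11 and 1.01 against 0.89. These are medians of gene groups, and the difference between the groups was not tested.

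On the TMM scale, where the median gene does not move, 60 members rose and 13 fell between 10 and 40 min averaged over the genotypes (40.0% and 8.67%, beside 26% and 26% of all genes). The members' median was 0.21 there, beside -0.03 over all genes and 0.06 over the short multi-exon genes. It followed abundance, with 0.46 in the 50 most abundant members, of which 38 rose and 2 fell, 0.21 in the next 50 and -0.02 in the last 50, of which 6 rose and 8 fell. The members that overlap no other gene had 0.27 and those that overlap a gene of the opposite strand 0.14. Single-exon genes left out of the set, the *Hist* and the named genes (66 tested), had 0.18. The plot of the rise over each step of EU time sets these groups side by side.

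**Figure D3:**
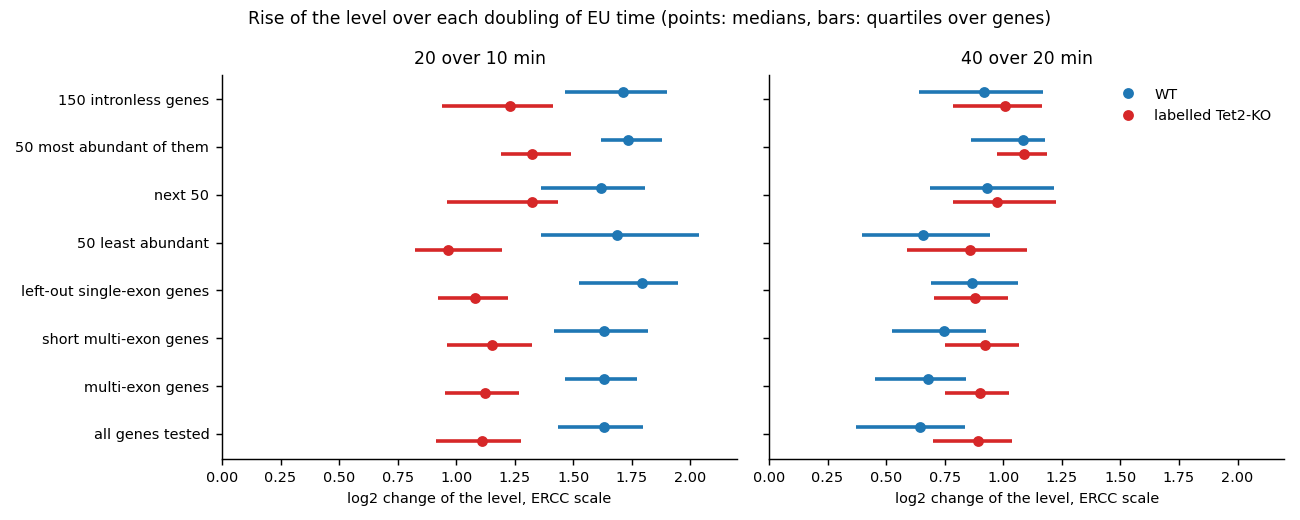
Rise of the level (log2 change, ERCC scale) from 10 to 20 min (left) and from 20 to 40 min (right) for groups of genes, with medians (points) and quartiles over genes (bars) in WT (blue) and labelled *Tet2*-KO libraries (red). From 20 to 40 min the 50 most abundant intronless genes have a median of 1.08 in WT and 1.09 in labelled *Tet2*-KO libraries, and all genes tested have 0.64 and 0.89.

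The members with the largest rise averaged over genotypes were *Gm21060* (log2 3.35), a 168-base gene model with a near copy, *Fzd10* (3.17), which encodes a Wnt receptor of the Frizzled family, and *Mgat2* (3.16), which encodes a Golgi enzyme of N-glycan synthesis. *Fzd10* had 0.167, 0.17 and 0.23 after 10 min, 0.735, 0.756 and 0.914 after 20 min and 1.87, 2.2 and 2.44 after 40 min in WT and 0.192, 0.249 and 0.301 after 10 min, 0.659, 0.716 and 0.915 after 20 min and 1.45, 1.88 and 1.95 after 40 min in labelled *Tet2*-KO libraries. Its groups overlapped at every EU time, and its log2 fold change between genotypes was -0.004 (SE 0.12, adjusted p = 0.976). *Mgat2* had 0.365, 0.377 and 0.385 after 10 min, 1.18, 1.35 and 1.59 after 20 min and 3.37, 3.69 and 3.93 after 40 min in WT and 0.768, 0.851 and 1.06 after 10 min, 2.4, 2.45 and 2.69 after 20 min and 7.18, 7.19 and 7.51 after 40 min in labelled *Tet2*-KO libraries, without overlap, with a log2 fold change of 1.04. The smallest rises were those of *A730071L15Rik* (1.03), *Gm11273* (1.16) and *4933415A04Rik* (1.24). *A730071L15Rik* had 458 reads and overlaps *Nudcd3* on the opposite strand, which had 101827, and *Gm11273* had 245 and is 99.2% identical to *Cox5b*, which had 28421. In 20 members the opposite-strand gene had more reads than the member, and the part of those genes in the members' values was not tested.

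In 8 members (5.33%) the log2 fold change between genotypes lay over 2 from the members' median, beside 2.6% of all genes from theirs. Of the 8, 6 have a near copy. Of these 6, *Gm37596*, *Gm21863*, *Gm5580* and *Gm9008* were not among the 150 most abundant in both genotypes and entered the set through the genotype in which they were high, so that nothing is read from these counts. The highest fold was that of *Gm37596*, a gene model whose transcript is 98.9% identical to *Gm10697*. It had 0 to 14 reads in WT libraries and 133 to 213 in those labelled *Tet2*-KO, 72 against 1563 in all, with a log2 fold change of 5.39. *Gm21863*, 93.2% identical to *Gm5953*, was the reverse, with 63 to 119 reads in WT libraries and 0 to 2 in those labelled *Tet2*-KO, 833 against 5 in all. Its fitted log2 fold change was -6.47, a value that depends on the prior count. *Gm5953* itself was higher in labelled *Tet2*-KO libraries, with a log2 fold change of 2.10 (SE 0.08).

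Copies of known genes are given here beside their relatives in the same libraries. For *Rpl10l* the nearest copy found was *Gm14460*, which had 4 reads and was not tested, so that no relative is given. *Hmga1b* had 0.0334, 0.0488 and 0.0639 after 10 min, 0.0441, 0.0664 and 0.0914 after 20 min and 0.0738, 0.128 and 0.24 after 40 min in WT and 0.224, 0.239 and 0.375 after 10 min, 0.694, 0.72 and 0.781 after 20 min and 1.41, 1.68 and 1.86 after 40 min in labelled *Tet2*-KO libraries, without overlap. Its log2 fold change was 3.14 (SE 0.18, adjusted p = 8.24e-51), beside 0.50 for *Hmga1*. *Gm9008* had 3 to 9 reads in WT libraries and 29 to 55 in those labelled *Tet2*-KO, with a log2 fold change of 3.71, and *Rnf26* had 0 reads. Whether *Rnf26* could be counted at all was not examined, so that its 0 is not read as a level. *Tpm3-rs7* had 0.126, 0.154 and 0.24 after 10 min, 0.365, 0.404 and 0.482 after 20 min and 1, 1.15 and 1.19 after 40 min in WT and 0.0317, 0.0547 and 0.0811 after 10 min, 0.134, 0.152 and 0.26 after 20 min and 0.181, 0.204 and 0.332 after 40 min in labelled *Tet2*-KO libraries, and its log2 fold change was -1.67 (SE 0.18, adjusted p = 6.88e-18), beside 0.85 for *Tpm3*. *Gm5580*, 98.5% identical to *Gm8994*, had 25 to 65 reads in WT libraries and 2 to 9 in those labelled *Tet2*-KO, with a log2 fold change of -2.0, and that of *Gm8994* was -1.51. *Rpl10l*, a ribosomal protein gene expressed in the testis, had 0.319, 0.387 and 0.53 after 10 min, 1.06, 1.23 and 1.32 after 20 min and 2.57, 2.58 and 2.97 after 40 min in WT and 2.15, 2.25 and 2.63 after 10 min, 5.25, 5.5 and 5.82 after 20 min and 12.2, 13.2 and 15.2 after 40 min in labelled *Tet2*-KO libraries, with a log2 fold change of 2.35 (SE 0.07, adjusted p = 1.06e-112). *Gm4737* had 1.56 and *Ahcy* 0.70, and *D1Pas1*, a testis relative of the X-linked RNA helicase gene *Ddx3x*, had 1.42 beside 0.82. Some other copies had values near those of their relatives: *Gm2000* had 0.94 and *Rpl35* 0.89, *Gm9844* 0.29 and *Tmsb10* 0.31, and *Sap18b* 0.59 and *Sap18* 0.64. Others did not: *Gm10330* had 0.30 and *5730507C01Rik* -2.08, and *Gm11361* had 0.74 and *Rps18* 0.33. No test of a copy against its relative was run. As a group the 30 members with a near copy had 25 higher and 3 lower (median 0.78), and the other 120 had 94 higher and 4 lower (median 0.68), near the 80.5% and 4.15% of all genes tested.

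**Figure D4:**
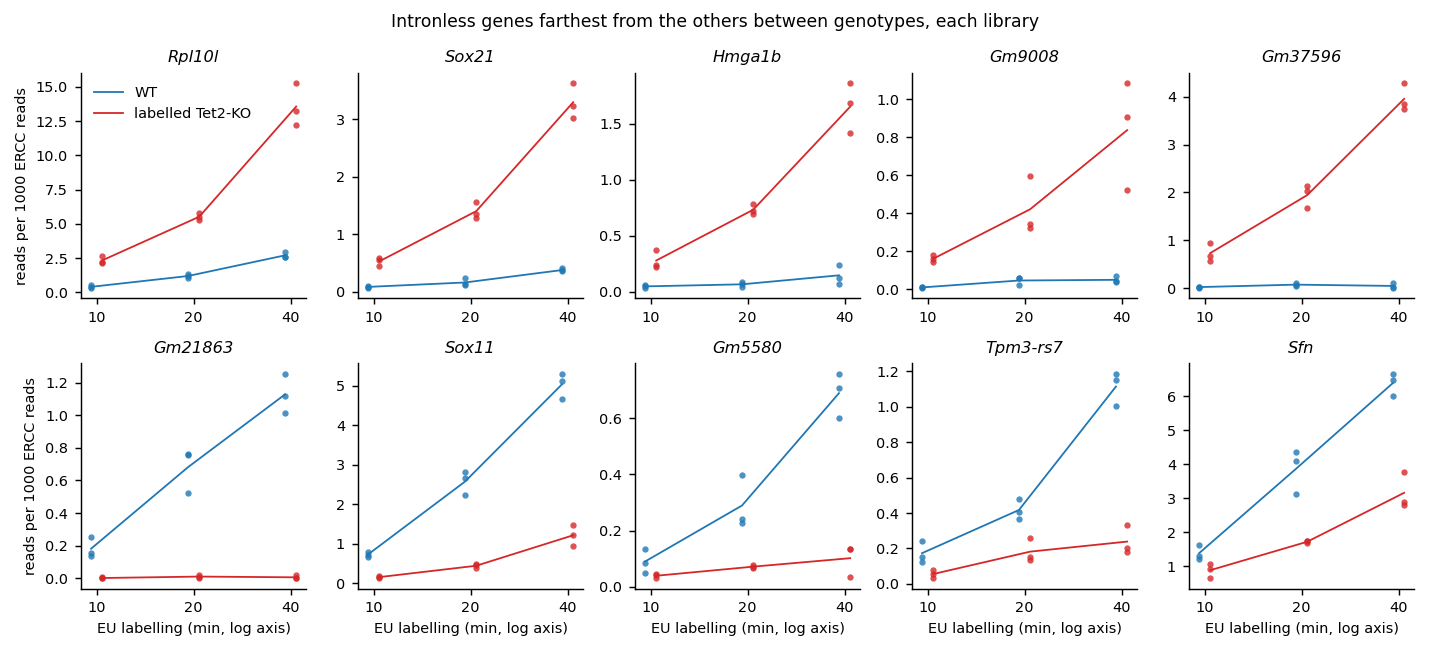
Level of the intronless genes with the 5 highest (upper row) and 5 lowest (lower row) log2 fold changes among members without overlap between genotypes, in reads per 1000 ERCC reads (linear axis), against minutes of EU labelling (log axis), as single libraries (points) and group means (lines). *Gm21863* lies near 0 in all labelled *Tet2*-KO libraries, with 5 reads in all, and *Gm37596* near 0 in WT.

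The 6 members without a near copy whose log2 fold change lay over 1.5 from the members' median were *Sox11*, *Sfn*, *Rhob*, *Nhlrc1*, *Pou3f2* and *Sox21*. With or without a near copy 13 members lay that far (8.67%), beside 4.57% of all genes tested from their own median. The 13 include *Gm37596*, *Gm21863*, *Gm5580* and *Gm9008*, which entered the set through the genotype in which they were high. Nothing is therefore read from this share. *Nhlrc1* and *Pou3f2* entered the set through the labelled *Tet2*-KO libraries, so that nothing is read from their values. Of the 5 SOX, FOX and POU transcription factor genes 3 were higher and 2 lower, with a median log2 fold change of 0.69. The 3 include *Pou3f2*. *Sox21*, a SoxB2 factor of neural progenitors, had 0.0647, 0.0891 and 0.103 after 10 min, 0.125, 0.131 and 0.233 after 20 min and 0.354, 0.372 and 0.411 after 40 min in WT and 0.444, 0.562 and 0.585 after 10 min, 1.29, 1.36 and 1.56 after 20 min and 3.03, 3.24 and 3.63 after 40 min in labelled *Tet2*-KO libraries. No library overlapped, and the log2 fold change was 2.96 (SE 0.13, adjusted p = 3.85e-76). *Pou3f2*, a POU factor of neurons, had 2.32, with 83 reads in WT and 228 in labelled *Tet2*-KO libraries, and *Foxd3*, a forkhead factor used in stem cells and neural crest, 0.69. *Sox11*, a SoxC factor of neural development, went the other way, with 0.668, 0.722 and 0.781 after 10 min, 2.23, 2.65 and 2.82 after 20 min and 4.67, 5.13 and 5.3 after 40 min in WT and 0.119, 0.159 and 0.171 after 10 min, 0.368, 0.467 and 0.477 after 20 min and 0.941, 1.22 and 1.47 after 40 min in labelled *Tet2*-KO libraries. Its log2 fold change was -2.29 (SE 0.10, adjusted p = 4.07e-73). *Sox4*, the other SoxC gene, had -0.26 (adjusted p = 0.0173), a call that was lost without replicate 1 of WT at 10 min (-0.22, adjusted p = 0.0539). On the TMM scale *Sox21* remained higher and *Sox11* and *Sox4* lower, and *Foxd3* was at 0.00 and was not called.

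*Sfn*, which encodes 14-3-3 sigma, a cell cycle regulator of epithelia, had 1.22, 1.31 and 1.61 after 10 min, 3.12, 4.11 and 4.38 after 20 min and 6.02, 6.49 and 6.67 after 40 min in WT. Its level in labelled *Tet2*-KO libraries was 0.644, 0.925 and 1.08 after 10 min, 1.67, 1.74 and 1.75 after 20 min and 2.81, 2.9 and 3.78 after 40 min, below WT at each EU time, and its log2 fold change was -0.95 (SE 0.08, adjusted p = 2.24e-28). *Rhob*, a small GTPase gene of endosomes and the cytoskeleton, had -0.90 (SE 0.11, adjusted p = 1.29e-14), and the other small GTPase gene, *Rap2b*, had 0.51. *Nhlrc1*, which encodes the ubiquitin ligase malin, had 2.28, with 64 reads in WT and 174 in labelled *Tet2*-KO libraries. It entered the set through the latter, so that nothing is read from this value. *Rhob*, *Pou3f2* and *Nhlrc1* were named after their values were seen.

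**Figure D5:**
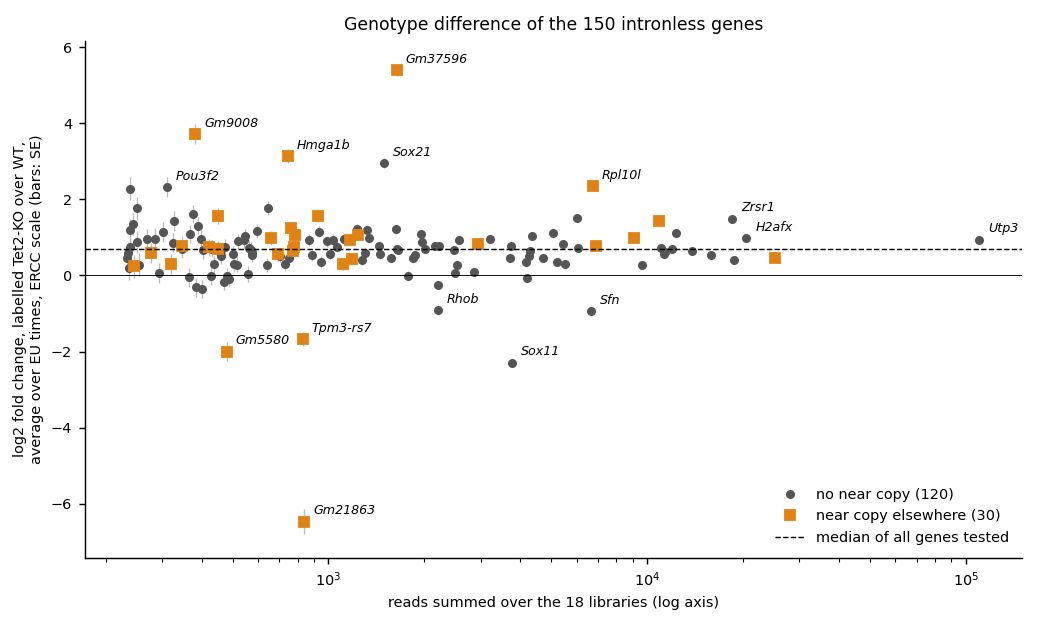
Log2 fold change of each of the 150 intronless genes, labelled *Tet2*-KO over WT averaged over EU times on the ERCC scale (bars: SE), against reads summed over the 18 libraries (log axis). Squares are the 30 members with a near copy, the dashed line is the median of all genes tested (0.70), and the genes farthest from it include *Gm37596*, *Gm9008*, *Hmga1b* and *Gm21863*, which have near copies, and *Sox21* and *Sox11*, which do not.

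By function, counts are read against the 80.5% of all genes tested that were higher and the 4.15% that were lower on the ERCC scale (median 0.70), and the 28.6% and 27.9% on the TMM scale. The RNA binding, RNA processing and translation list had 9 members, all higher, with a median log2 fold change of 0.94 (0.55 to 2.35). On the TMM scale 5 were higher and none lower. Beside *Utp3*, *Hnrnpa0* and *Rpl10l* it holds *Rbmxl2* (1.51), a germ cell RNA-binding protein gene, *Eif3j2* (1.07), a copy of an initiation factor subunit gene, *Pabpc6*, *Rpl36a-ps1*, *Ddx28* and *Trmt12*, and 4 of the 9 have a near copy. A further group of ribosome, tRNA and RNA processing genes, read by hand, had 9 of 10 higher (median 0.61), and on the TMM scale 2 were higher and 3 lower. Among 13 transcription and chromatin regulators, read by hand, 13 were higher, with the same median of 0.70 as over all genes, but on the TMM scale 4 were higher and 3 lower.

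Of the 8 G protein coupled receptors and their like 5 were higher and 3 were not called (median 0.56, beside 80.5% higher and a median of 0.70 over all genes tested), and on the TMM scale 3 were lower. *Fzd7* had 0.66, *Lpar6*, a lysophosphatidic acid receptor gene inside *Rb1* on the opposite strand, 0.47, and *Fzd9* 0.97. *Fzd10*, *Fzd8* (-0.09) and *Gpr135* (-0.05) were not called. Of 4 ubiquitin ligase, Kelch and BTB genes all were higher (median 0.62), with *Klhl9*, a cullin 3 adaptor gene, at 0.47 and *Fbxl14*, which lies inside *Wnt5b* on the opposite strand, at 0.28. On the TMM scale 2 of these 4 were lower. The list drawn up for mitochondrial and metabolic proteins took 5 members by symbol, *Mgat2*, *Pigm*, *B3galt4*, *B3galt6* and *Slc25a2*. Of these 4 were higher (median 0.75). *Pigm*, a mannosyltransferase gene of GPI anchor synthesis, was not called, with -0.08 (SE 0.08, adjusted p = 0.391). Of 8 metabolic enzyme and channel genes read by hand all were higher (median 1.05), 5 of them also on the TMM scale. The 8 include *Dio3*, which entered the set through the labelled *Tet2*-KO libraries.

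Of 3 domesticated transposon genes 2 were higher, *Jrkl* at 0.36 and *Thap11*, a transcription factor gene needed for stem cell self-renewal, at 0.93. The list drawn up for kinases, phosphatases and signalling adaptors took 4 members by symbol alone, among them *Map10*, which encodes a microtubule-associated protein, and *Fam43a*. All 4 were higher, with 0.64 and 0.95 for these. The 2 members on the list of imprinted genes, *Zrsr1* and *Ndn* (1.15), were higher, beside 80.5% of all genes tested. *Dio3* (1.76), an imprinted gene not on that list, entered the set through the labelled *Tet2*-KO libraries, so that nothing is read from its value. The 30 gene models with *Gm* or *Rik* names ran from -6.47 to 5.39, with 17 higher, 2 lower and 11 not called (median 0.60). The ends of this range are *Gm21863* and *Gm37596*, which entered the set through 1 genotype, as did *Gm5580* and *Gm9008*. Nothing is therefore read from its width or from the 2 called lower, *Gm21863* and *Gm5580*. Pairs of neighbouring members moved by similar or different amounts. *Eid2* and *Eid2b*, 8466 bases apart, had 1.22 and 1.17. *Kbtbd7* and *Kbtbd6*, 20798 bases apart, had 0.77 and 0.98, and *Ttc30b* and *Ttc30a1*, 39661 bases apart, had 1.57 and 0.70. *Kbtbd7* is the near copy found for *Kbtbd6*, and *Ttc30a1* the near copy found for *Ttc30b*.

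The choice by summed count bears on the extremes, since a gene high in 1 genotype only can enter through that genotype. Of the 150 members 138 were also among the first 150 by the WT libraries alone and by the labelled *Tet2*-KO libraries alone. The other 12 include *Gm37596*, *Gm21863*, *Gm5580*, *Gm9008*, *Pou3f2*, *Nhlrc1* and *Dio3*. Of the 138, 112 were higher and 5 lower, with a median log2 fold change of 0.69.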

How the data were processed

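The deposited values were raw read counts per gene for each of 18 libraries. Per the authors' methods and the labels, reads were trimmed with Trimmomatic 0.39, aligned with HISAT2 2.2.1 to mm10 with GENCODE M19 and the ERCC sequences, and counted with HTSeq 0.12.4. The counting mode was not given in the sources used here and was read from the counts. Here 54409 of 54446 gene identifiers were matched to GENCODE M21. The 5 summary rows stayed out of library sizes and tests, among them reads on no gene, 13.2% to 16.9% of all recorded.

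Genes passing filterByExpr (19910) were fitted over the 6 groups with edgeR 4.0.16 (quasi-likelihood, offsets from the reads summed over 92 ERCC transcripts, Benjamini-Hochberg adjustment, called at 0.05). Alternatives were TMM scaling, DESeq2 1.42.0 with either scaling, no filter, a replicate block, leaving out each library, the members without overlap and the first 100. In simulated counts with 200 genes changed by a log2 of 1 in the average contrast, 182 were recovered and 9 other genes of 19910 were called. These counts had the same spread for every gene and as many genes raised as lowered. Unlike the data they held no shift of most genes, so that they do not check the ERCC scale. Near copies were found with BLAST+ 2.17.0 (megablast, word size 24). The members, the lists and the hand-read groups were chosen with earlier results of these data known, so that no list supports a direction. Named were the 10 members of highest count, the 5 highest and 5 lowest fold changes among called members without overlap, the 3 largest and 3 smallest rises with EU time, the last 3 members, and the 2 most abundant of each list with 3 or more members. The replicate numbers did not pair the libraries.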

Additional observations from a re-analysis of the deposited data

Results flagged for a closer look

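The difference between the genotypes changed from 10 to 40 min of EU, by a test of that change in edgeR's quasi-likelihood fit, for 27 members, all with a lower fold change at 40 min. This is 18% of the members, near the 19.3% of all genes tested that were lower. On the TMM scale 7 members were lower and 1 higher. Of the genes named by rule, 9 were among the 27. The log2 fold change was lower at 40 than at 10 min by 0.98 in *Pcbp1* (-0.98), 0.72 in *H2afx* (-0.72), 0.66 in *Haspin* (-0.66), 0.54 in *Utp3* (-0.54), 0.53 in *Map10* (-0.53), 0.50 in *Rrs1* (-0.50), 0.47 in *Hexim1* (-0.47) and 0.43 in *Zfp830* (-0.43). *Gm21060*, a 168-base model with a near copy, had the widest change of the 9 (-1.54).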

How the results depend on the processing

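The scale decided most calls. Counts of members higher and lower and the median log2 fold change are given for TMM scaling in edgeR and, after it, for DESeq2 with size factors from genes. On average over the EU times they were 37 and 32 (median 0.003), then 35 and 32 (median -0.002). At 10 min they were 23 and 24 (median 0.044), then 23 and 24 (median 0.047). At 20 min they were 28 and 16 (median 0.076), then 27 and 16 (median 0.069). At 40 min they were 17 and 27 (median -0.065), then 16 and 27 (median -0.073). In the change from 10 to 40 min they were 1 and 7 (median -0.076), then 3 and 6 (median -0.082). In WT from 10 to 40 min they were 55 and 8 (median 0.335), then 55 and 6 (median 0.331). In those labelled *Tet2*-KO from 10 to 40 min they were 40 and 4 (median 0.199), then 39 and 3 (median 0.189). The direction of the median turned under one or both of these scales at 40 min and on average. On the same 2 scales the log2 fold change on average turned negative for *Rrs1* (-0.251 and -0.255), *Pcbp1* (-0.286 and -0.291), *Hexim1* (-0.161 and -0.166), *Hnrnpa0* (-0.056 and -0.061), *Zfp830* (-0.009 and -0.014), *Epop* (-0.090 and -0.095), *Gm21060* (-0.140 and -0.146), *A730071L15Rik* (-0.081 and -0.086), *Gm11273* (-0.454 and -0.464), *E130208F15Rik* (-0.491 and -0.501), *Gm42372* (-0.099 and -0.109), *Gm5617* (-0.208 and -0.217), *Jrkl* (-0.340 and -0.344), *Fzd7* (-0.036 and -0.041), *Map10* (-0.043 and -0.048), *Klhl9* (-0.227 and -0.232) and *Fbxl14* (-0.415 and -0.420). The 103 members without overlap gave 79 higher on average, 43 at 20 min and 51 at 40 min, and 17 whose fold change was lower at 40 min, as fewer genes allow, and the 100 most abundant had a median rise of 2.388 in those labelled *Tet2*-KO. Leaving out each library in turn, the ranges were as follows. On average over the EU times there were 115 to 120 higher and 6 to 8 lower (median 0.663 to 0.726). At 10 min there were 107 to 116 higher and 5 to 6 lower (median 0.891 to 1.065). At 20 min there were 60 to 71 higher and 7 to 8 lower (median 0.456 to 0.623). At 40 min there were 66 to 83 higher and 6 lower (median 0.551 to 0.660). In the change from 10 to 40 min there were 0 to 1 higher and 10 to 37 lower (median -0.476 to -0.315). In WT from 10 to 40 min there were 147 to 150 higher and 0 lower (median 2.578 to 2.675). In those labelled *Tet2*-KO from 10 to 40 min there were 139 to 145 higher and 0 lower (median 2.154 to 2.287). The log2 fold change of *Fzd10* ran from -0.058 to 0.050 and that of *E130208F15Rik* from -0.023 to 0.528; neither was called in any of these fits. The replicate numbers do not pair the libraries: over 45 pairs of same-numbered libraries the deviations from the group means had correlations of -0.18 to 0.161. With a replicate block 119 members were higher and 7 lower on average. The block, no filter on low counts and DESeq2 with ERCC size factors each left the direction and the side of the threshold of all 59 results as they were. Depth limits the members of lowest count, the last of which had 234 reads over the 18 libraries. The causes of these changes were not tested.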

Other observations

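Among the 27 members whose fold change was lower at 40 than at 10 min, those outside the named genes include *Dio3*, which encodes a deiodinase that inactivates thyroid hormone, with a change of -2.65 on the log2 scale (adjusted p = 0.00638, edgeR) and 1 to 26 reads per library. *Cited4*, a transcriptional coactivator gene, changed by -1.84 (adjusted p = 0.0245, edgeR), with only 2, 19 and 3 reads in the WT libraries at 10 min. *Bloc1s4*, which encodes a subunit of a lysosome-related organelle complex, changed by -1.24 (adjusted p = 0.000931, edgeR) and *Otud1*, a deubiquitinase gene, by -1.11 (adjusted p = 0.00845, edgeR). These 4 genes were named after their values were seen.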
